A study of Mus musculus with 12 samples.

Results

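A set of 8 genes that encode NRF2 and antioxidant proteins under its control were followed through the 4 groups of an Iqgap2 knockout study of mouse liver cancer. They are Nfe2l2, the gene of NRF2 itself, and its targets Nqo1, Srxn1, Gclc, Gclm, Hmox1, Txnrd1 and Slc7a11. Every probe set annotated with exactly 1 of these 8 symbols was taken, which gave 17 of the 45037 probe sets tested and 8 of the 18193 genes that have a probe set naming them alone. A probe set is a group of short oligonucleotides that together report 1 transcript. Each gene is described by its brightest probe set, the highest in mean over all arrays, and its other probe sets stand beside it.

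The study hybridised total liver RNA of 12 male mice to Affymetrix mouse genome arrays, with 1 array per animal and 3 biological replicates per group. All animals came from lines kept on the 129J background. The groups were wild type (WT) at 6 months, IQGAP2 knockout (KO) at 6 months, WT at 24 months, each from normal liver, and KO at 24 months from hepatocellular carcinoma (HCC) tissue. IQGAP2 is a scaffold protein of the IQGAP family. The knockout is present in every cell of the animal, so the liver's other cell types lack the gene too. Age and tumor tissue cannot be told apart in the KO arrays, because non-tumor liver of the KO mice at 24 months was not analysed here.

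NRF2 is a transcription factor that is held low in resting cells, where KEAP1 hands it to a CUL3 ubiquitin ligase for destruction. Electrophiles and oxidants modify KEAP1, NRF2 then accumulates, pairs with a small MAF protein and binds antioxidant response elements in the promoters of its targets. In liver this programme supplies glutathione, reduces peroxiredoxins and thioredoxin, and detoxifies quinones. Because much of its control acts on the NRF2 protein, the level of the Nfe2l2 transcript is only a part of NRF2 activity, and protein was not measured on these arrays.

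The deleted gene went against 2 of the labels, so the arrays are named by their label throughout. Iqgap2 measured 8.38, 8.24 and 8.33 on the log2 scale in the arrays with the label WT 6 months, and 8.12, 8.68 and 8.07 in those labelled KO 6 months. It measured 12.28, 12.30 and 11.92 in those labelled WT 24 months and 12.15, 12.05 and 12.15 in those labelled KO 24 months tumor. The arrays labelled WT 6 months were thus as low as the KO 6 months arrays, and the arrays labelled KO 24 months tumor as high as the WT 24 months arrays. This is the pattern that an exchange of those 2 labels would give. The labels were kept as deposited. If the labels were exchanged, the arrays labelled WT 6 months would be the KO tumors. Their comparison with WT 24 months, wherever it appears below, would then be KO tumor against WT at 24 months. Their comparison with KO 6 months would be KO tumor against KO at 6 months. The comparisons of the arrays labelled KO 24 months tumor have their exchanged reading beside their counts.

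All values are log2 intensities after RMA (robust multi-array average, which corrects background, gives the arrays the same distribution and summarises each probe set), so a difference of 1 is a doubling of signal. The median log2 intensity of an array lay between 5.41 and 5.45. The mean of 7 hepatocyte markers was 14.41 to 14.62 in every array, and none of them was called in any comparison. Markers of 4 other cell types or zones moved with the arrays labelled WT 6 months. Against the WT 24 months and the KO 6 months arrays, 6 of 7 sinusoidal endothelial and 4 of 6 stellate cell markers were lower in both comparisons, 7 of 8 pericentral hepatocyte markers were higher, and 5 of 6 periportal markers were lower. Of 12 Kupffer cell and macrophage markers 2 and 1 were lower, at most 1 biliary and 1 lymphocyte marker were called in a comparison, and 0 neutrophil or erythroid markers were called. Of all genes, 6.37% were called higher and 5.39% lower against WT 24 months, and 7.48% and 8.14% against KO 6 months. The part of these markers in the results below was not tested. Differences were tested with limma over all 45037 probe sets, and a gene was called when its p, adjusted by Benjamini-Hochberg over all of them, was 0.05 or less. With 3 arrays against 3, an exact two-sided permutation test of a single gene cannot go below p = 0.1.

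Promoter sequence near the annotated start is shown for the letters of the element that NRF2 reads. Of the 8 genes, 6 had an entry in the RefSeq promoter table (assembly GRCm38.p6), and Gclc and Hmox1 had none. The 250 bases before each annotated start were searched on both strands for TGACNNNGC, the core of the antioxidant response element, and for TGACTCA, the AP-1 site that overlaps with it when GC follows. The windows of Nfe2l2, Srxn1, Gclm and 1 of 3 annotated starts of Txnrd1 held a match and are printed 5′ to 3′ in the direction of the gene, with the matches in capitals. The assembly is that of the reference strain and not of the 129J mice.
The Nfe2l2 window is chr2:75704664-75704913 on the minus strand, with 1 TGACNNNGC match on the strand of the gene, 240 to 232 bases before the start.
Nfe2l2: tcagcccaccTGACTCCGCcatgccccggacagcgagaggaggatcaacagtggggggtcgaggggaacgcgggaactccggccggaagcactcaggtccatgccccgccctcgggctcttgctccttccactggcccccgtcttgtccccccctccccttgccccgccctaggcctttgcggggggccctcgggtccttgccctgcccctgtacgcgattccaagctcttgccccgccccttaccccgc
The Srxn1 window is chr2:152105274-152105523 on the plus strand, with 2 TGACTCA matches on the opposite strand, 102 to 96 and 45 to 39 bases before the start, and no TGACNNNGC.
Srxn1: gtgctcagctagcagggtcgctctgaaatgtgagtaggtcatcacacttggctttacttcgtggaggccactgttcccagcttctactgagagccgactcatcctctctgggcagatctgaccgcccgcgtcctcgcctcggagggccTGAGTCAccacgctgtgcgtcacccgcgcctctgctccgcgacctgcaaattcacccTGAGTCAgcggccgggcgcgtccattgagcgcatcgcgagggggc
The Gclm window is chr3:122245307-122245556 on the plus strand, with 1 TGACNNNGC match on the opposite strand, 134 to 126 bases before the start.
Gclm: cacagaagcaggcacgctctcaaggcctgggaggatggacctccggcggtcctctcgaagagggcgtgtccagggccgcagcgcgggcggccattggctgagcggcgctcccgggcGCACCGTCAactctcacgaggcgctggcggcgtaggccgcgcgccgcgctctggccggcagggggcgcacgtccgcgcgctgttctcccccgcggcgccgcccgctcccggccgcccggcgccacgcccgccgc
The Txnrd1 window is chr10:82858956-82859205 on the plus strand, with 1 TGACNNNGC match on the opposite strand, 92 to 84 bases before the start.
Txnrd1: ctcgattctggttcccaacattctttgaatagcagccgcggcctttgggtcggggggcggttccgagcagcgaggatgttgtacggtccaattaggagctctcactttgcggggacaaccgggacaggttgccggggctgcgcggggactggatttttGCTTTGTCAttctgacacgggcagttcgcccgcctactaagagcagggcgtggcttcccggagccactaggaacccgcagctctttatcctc
The windows of Nqo1 and Slc7a11 held neither run of letters. Over all 32851 windows of the table, 10.2% held TGACNNNGC and 4.46% held TGACTCA. A match describes the letters only, and a window without one says nothing of elements that lie further from the start.

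Nfe2l2, the transcript of NRF2, was highest in the arrays labelled WT 6 months. Its brightest probe set measured 11.05, 10.64 and 11.07 in arrays labelled WT 6 months, 10.15, 10.24 and 10.27 in KO 6 months, 10.09, 9.84 and 10.09 in WT 24 months, and 9.96, 9.70 and 9.99 in KO 24 months tumor. Every array labelled WT 6 months lay above all 9 others. The difference was 0.92 ± 0.13 (log2, SE from limma, n = 3 arrays per group, 1.89-fold, adjusted p = 0.00133) against WT 24 months and 0.70 ± 0.13 (1.62-fold, adjusted p = 0.00596) against KO 6 months. The other 3 groups followed each other closely in the order KO 6 months, WT 24 months, KO 24 months tumor, and neither comparison made among them passed the threshold. The second Nfe2l2 probe set, near 6 on the log2 scale, measured 5.60, 6.53 and 6.41 in arrays labelled WT 6 months against 5.63 to 6.88 in the 9 others, overlapped between all groups, and differed by 0.01 (95% interval -0.63 to 0.66) against WT 24 months. When the probe sets of a gene were averaged, neither Nfe2l2 difference passed (adjusted p = 0.0536 and 0.0798).

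**Figure D1:**
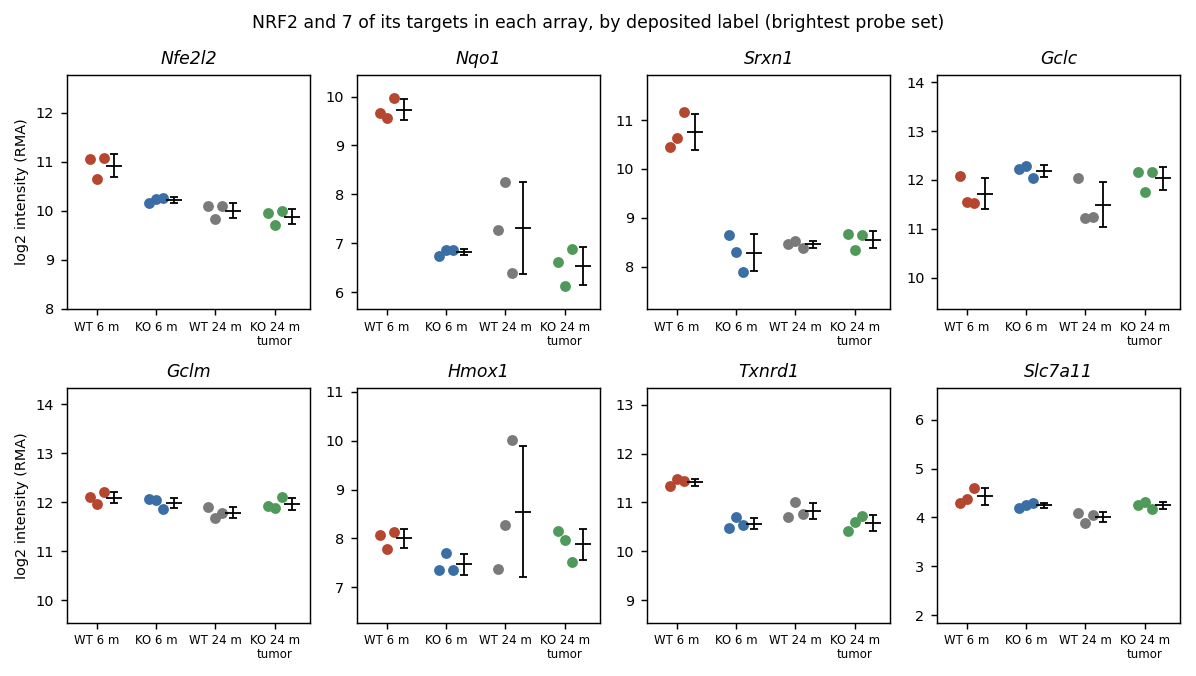
Log2 RMA intensity of the brightest probe set of each of the 8 genes in every array (points, 3 per deposited label), with the mean and SD of the 3 arrays as a bar beside them. Each panel has its own axis of at least 4 log2 units. Nfe2l2, Nqo1, Srxn1 and Txnrd1 lie higher in all 3 arrays labelled WT 6 months than in any other array, whereas Gclc and Gclm overlap there with KO 6 months and KO 24 months tumor, and the highest Hmox1 value, 10.01, is a single WT 24 months array.

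Nqo1 encodes a quinone reductase that uses NADPH or NADH to reduce quinones by 2 electrons, and it is among the most used readouts of NRF2. Its single probe set measured 9.66, 9.56 and 9.98 in arrays labelled WT 6 months, 6.74, 6.87 and 6.86 in KO 6 months, 7.28, 8.26 and 6.39 in WT 24 months, and 6.62, 6.12 and 6.89 in KO 24 months tumor. The arrays labelled WT 6 months again stood above the rest without overlap, while the WT 24 months arrays were spread from 6.39 to 8.26. Nqo1 was 5.34-fold higher than in WT 24 months (log2 difference 2.42 ± 0.36, adjusted p = 0.00155) and 7.52-fold higher than in KO 6 months (2.91 ± 0.36, adjusted p = 3.87e-04). This was the largest change among the 8 genes against KO 6 months. Against WT 24 months it was about level with that of Srxn1. Their order depended on the WT 24 months arrays. Nqo1 was 1.96 against 2.25 for Srxn1 without the third of these arrays, and 2.89 against 2.32 without the second.

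Srxn1 encodes sulfiredoxin, which returns overoxidised peroxiredoxins to their working form. Its brightest probe set measured 10.44, 10.64 and 11.16 in arrays labelled WT 6 months, 8.65, 8.31 and 7.90 in KO 6 months, 8.47, 8.52 and 8.38 in WT 24 months, and 8.67, 8.35 and 8.64 in KO 24 months tumor. The highest array of the 3 other groups, at 8.67, stood well below the lowest array labelled WT 6 months, at 10.44. The difference was 2.29 ± 0.20 (4.89-fold, adjusted p = 3.82e-05) against WT 24 months and 2.46 ± 0.20 (5.50-fold, adjusted p = 1.99e-05) against KO 6 months. Of the 4 Srxn1 probe sets, 3 gave this result, with differences of 2.05 to 2.29 against WT 24 months and 2.22 to 2.46 against KO 6 months. The fourth lay between 6.66 and 7.10 in all 12 arrays and differed by 0.16 (95% interval -0.08 to 0.41) and 0.05 (-0.19 to 0.29).

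Txnrd1 encodes the cytosolic thioredoxin reductase, which keeps thioredoxin reduced with electrons from NADPH. Its brightest probe set measured 11.34, 11.48 and 11.43 in arrays labelled WT 6 months, 10.48, 10.70 and 10.54 in KO 6 months, 10.70, 11.00 and 10.77 in WT 24 months, and 10.41, 10.60 and 10.73 in KO 24 months tumor. The arrays labelled WT 6 months did not overlap with any other group, whereas the other 3 overlapped in part, and Txnrd1 was 1.51-fold higher than in WT 24 months (0.59 ± 0.12, adjusted p = 0.00791) and 1.79-fold higher than in KO 6 months (0.84 ± 0.12, adjusted p = 7.55e-04). Both dimmer probe sets of Txnrd1 overlapped between the groups. The first differed by 0.47 ± 0.30 (adjusted p = 0.447) and 0.33 ± 0.30 (adjusted p = 0.535), with 8.68 in the first array labelled WT 6 months against 7.35 and 7.48 in its replicates, and the other stayed between 5.02 and 5.52 in every array. With the probe sets averaged, the Txnrd1 differences did not pass (adjusted p = 0.121 and 0.112).

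Gclc and Gclm encode the catalytic and the modifier subunit of glutamate-cysteine ligase, the rate-limiting enzyme of glutathione synthesis, and neither was called in any comparison. Gclc measured 12.07, 11.55 and 11.53 in arrays labelled WT 6 months, 12.22, 12.29 and 12.04 in KO 6 months, 12.03, 11.22 and 11.24 in WT 24 months, and 12.17, 11.76 and 12.17 in KO 24 months tumor. The arrays labelled WT 6 months overlapped with each of the other groups. The difference was 0.22 (95% interval -0.27 to 0.71) against WT 24 months and -0.47 (-0.96 to 0.02) against KO 6 months, so that the direction was not the same in the 2 comparisons. The second Gclc probe set gave 0.50 (0.03 to 0.98, adjusted p = 0.21) and -0.17 (-0.64 to 0.31).

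The modifier subunit was almost level. Gclm measured 12.10, 11.97 and 12.20 in arrays labelled WT 6 months, 12.06, 12.05 and 11.87 in KO 6 months, 11.91, 11.68 and 11.78 in WT 24 months, and 11.93, 11.88 and 12.11 in KO 24 months tumor. Its difference was 0.30 (95% interval 0.07 to 0.53, adjusted p = 0.119) against WT 24 months, whose 3 arrays all lay lower, and 0.10 (-0.14 to 0.33) against KO 6 months. These intervals bound a change of either subunit in the arrays labelled WT 6 months to under 1 log2 unit, less than the lower interval bounds of 1.62 and 1.84 for Nqo1 and Srxn1 in the comparison with WT 24 months. The second Gclm probe set differed by 0.03 (-0.21 to 0.27) and -0.28 (-0.51 to -0.04, adjusted p = 0.128).

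Slc7a11 encodes xCT, the cystine transporter that supplies cysteine for glutathione. It was the dimmest of the 8 genes, below the median probe set of the arrays, where RMA values carry little signal over background. The brightest probe set measured 4.29, 4.38 and 4.61 in arrays labelled WT 6 months, 4.20, 4.26 and 4.30 in KO 6 months, 4.08, 3.89 and 4.05 in WT 24 months, and 4.25, 4.32 and 4.18 in KO 24 months tumor. The difference against WT 24 months passed (0.42 ± 0.10, adjusted p = 0.0254) and that against KO 6 months, where the groups overlapped, did not (0.17 ± 0.10, adjusted p = 0.325). The second probe set gave 0.57 ± 0.15 (adjusted p = 0.0326) and 0.46 ± 0.15 (adjusted p = 0.0659). The call was lost when array 2 or 3 labelled WT 6 months or array 2 of WT 24 months was left out (adjusted p = 0.0542, 0.0915 and 0.0871) and when only these 2 groups were fitted (adjusted p = 0.138).

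Hmox1 encodes heme oxygenase-1, which opens the heme ring and is also made in large amounts by macrophages that clear red cells. It measured 8.07, 7.79 and 8.14 in arrays labelled WT 6 months, 7.35, 7.71 and 7.36 in KO 6 months, 7.37, 8.27 and 10.01 in WT 24 months, and 8.15, 7.96 and 7.52 in KO 24 months tumor. The arrays labelled WT 6 months lay above those of KO 6 months without overlap, but the difference of 0.52 ± 0.49 was not called (adjusted p = 0.549). It was not called by limma with these 2 groups fitted alone (adjusted p = 0.0553) or without the third WT 24 months array (adjusted p = 0.162). SAM called it at a false discovery rate of 0.0272. In this comparison SAM called 4483 probe sets higher and 5305 lower of 45037, where limma called 2715 and 2738. Against WT 24 months the difference was -0.55 ± 0.49 (adjusted p = 0.619), and 0.18 without the third WT 24 months array.

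The third WT 24 months array also carried the highest macrophage markers. The mean of 12 Kupffer cell and macrophage markers was 8.04, 8.99 and 11.23 in the 3 WT 24 months arrays and 7.30 to 8.59 in the 9 others. Clec4f, the lectin that marks Kupffer cells, measured 12.44 in that array against 7.39 to 10.04 in the others, Vsig4 13.29 against 7.31 to 10.00, and Marco 10.53 against 5.43 to 8.42. Of the 12 markers 11 were highest in that array, and Cd163 was the exception, with 5.57 there against 7.65 and 8.65 in the other WT 24 months arrays. The mean of 5 neutrophil markers was 7.77 there, with 7.48 in the first array labelled WT 6 months and 5.50 to 6.60 in the rest. The part of macrophages in the Hmox1 value was not tested. In bulk tissue, more cells of a type and more RNA per cell cannot be told apart.

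**Figure D2:**
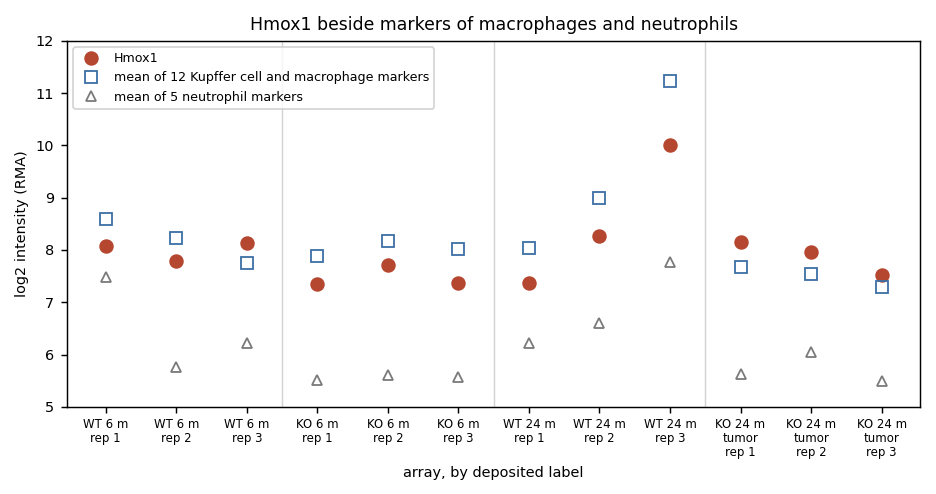
Log2 RMA intensity of Hmox1 (filled circles), the mean of 12 Kupffer cell and macrophage markers (open squares) and the mean of 5 neutrophil markers (open triangles) in each of the 12 arrays, in the order of their deposited labels. The third WT 24 months array is highest in all 3, with 10.01, 11.23 and 7.77, and the second WT 24 months array is next in Hmox1 (8.27) and in the macrophage mean (8.99).

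Counted together, the arrays labelled WT 6 months had some of the 8 genes higher and none lower. Against WT 24 months (the age comparison in WT, or KO tumor against WT at 24 months if the labels were exchanged) 5 of the 8 were called higher, Nfe2l2, Nqo1, Srxn1, Txnrd1 and Slc7a11, where 6.37% of all 18193 genes were, and 0 were called lower, where 5.39% of all genes were. At the second rule of an adjusted p of 0.05 or less and a fold of 3 or more, Nqo1 and Srxn1 were called, 2 of the 8, against 2.35% of all genes in either direction. Against KO 6 months (genotype at 6 months, or KO tumor against KO at 6 months if the labels were exchanged) 4 of the 8 were called higher, Nfe2l2, Nqo1, Srxn1 and Txnrd1, against 7.48% of all genes, and 0 lower, against 8.14%. The rule with the fold again called Nqo1 and Srxn1, 2 of the 8, against 2.59% of all genes. These 2 comparisons share the arrays labelled WT 6 months. With SAM (significance analysis of microarrays) as the test, Srxn1 alone remained called against WT 24 months, and Nqo1 missed at a false discovery rate of 0.0934. SAM called 474 of all 45037 probe sets higher and 347 lower there, where limma called 2234 and 1710. Against KO 6 months SAM kept all 4 calls and added Hmox1, and called 4483 probe sets higher and 5305 lower.

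No difference of the 8 genes passed the threshold between the arrays labelled KO 24 months tumor and either remaining group. Against WT 24 months (genotype at 24 months, or WT at 6 against 24 months if exchanged) limma called 0 of 8 higher, with 0.192% of all genes called, and 0 lower, with 0.121%. Against KO 6 months (age in KO, or WT against KO at 6 months if exchanged) it called 0 of 8 higher, with 0.022% of all genes called, and 0 lower, with 0%. So few genes of the whole array passed in these comparisons that the counts of 0 say little of the 8 genes, and the intervals say more.

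Srxn1 differed by 0.10 (95% interval -0.35 to 0.55) between the arrays labelled KO 24 months tumor and WT 24 months and by 0.27 (-0.18 to 0.71) against KO 6 months. Nqo1 differed by -0.77 (-1.56 to 0.02) and -0.28 (-1.07 to 0.52), intervals wider than those of the other called genes. Nfe2l2 differed by -0.12 (-0.41 to 0.17) and -0.34 (-0.63 to -0.04), and Txnrd1 by -0.25 (-0.50 to 0.01) and 0.00 (-0.25 to 0.26). At an unadjusted p under 0.05 in limma, Gclc (0.54 ± 0.22, adjusted p = 0.285) and Slc7a11 (0.25 ± 0.10, adjusted p = 0.287) passed against WT 24 months. Nfe2l2 (adjusted p = 0.759) passed against KO 6 months. The share of all genes passing at an unadjusted p was not computed, so these passes are not read as a result about the 8 genes. SAM called none of the 8 in either comparison. Of all 45037 probe sets it called 130 higher and 131 lower against WT 24 months, and 61 and 64 against KO 6 months. Without the first WT 24 months array, limma called Gclc higher in the arrays labelled KO 24 months tumor (0.81, adjusted p = 0.0477). That fit called 599 of all 45037 probe sets higher and 578 lower, where the fit of all arrays called 55 and 52. The Gclc call is thus not read as a result about the gene.

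**Figure D3:**
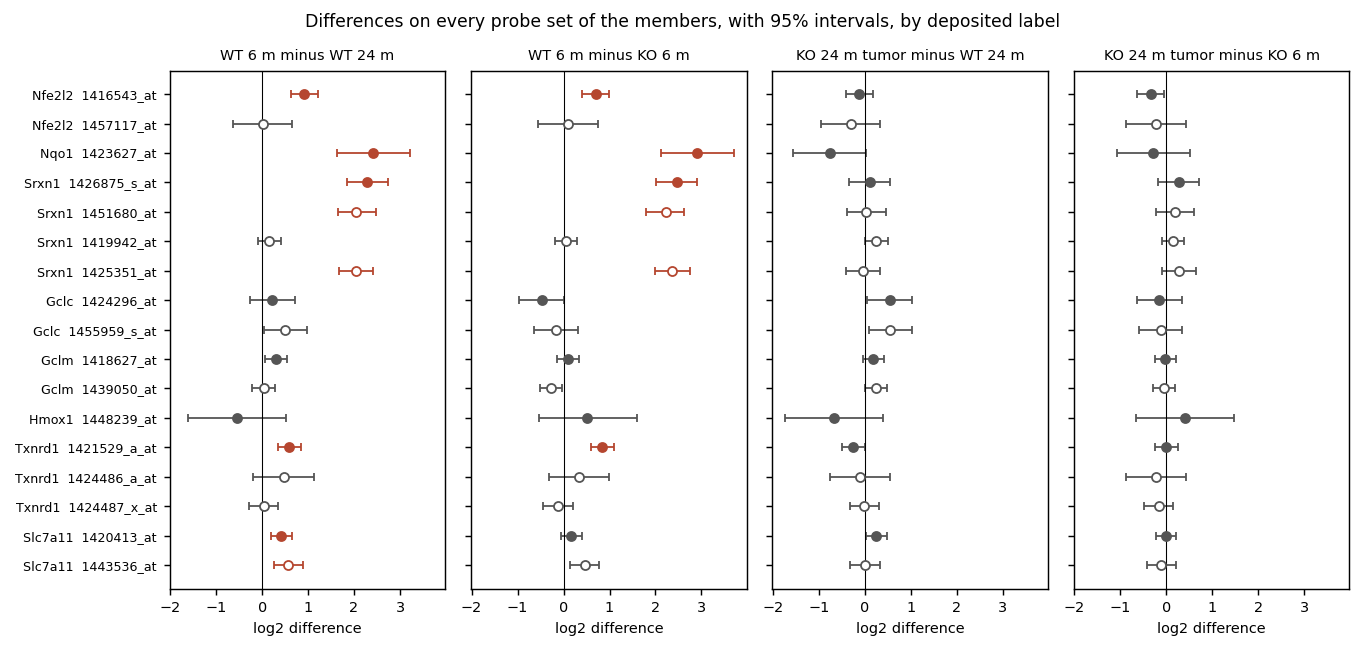
Log2 difference (point) and 95% interval from limma (line) for all 17 probe sets in the 4 pairwise comparisons by deposited label, where filled points are the brightest probe set of a gene, open points its other probe sets, and red marks an adjusted p of 0.05 or less. The red points stand in the 2 comparisons of the arrays labelled WT 6 months, where 3 of the 4 Srxn1 probe sets lie between 2.05 and 2.46, and no point is red in the comparisons of the KO 24 months tumor arrays, where the intervals of Nqo1 and Hmox1 are the widest of the brightest probe sets.

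The interaction of genotype and age asks whether the change with age was the same in KO and WT, and it is the same sum of group means when the 2 labels are exchanged. It was called for 2 of the 8 genes, where 2.25% of all genes were called in that direction, and for 0 in the other, where 1.93% were. Srxn1 gave 2.56 ± 0.29 (adjusted p = 5.50e-04), and its other responding probe sets gave 2.25 and 2.33. Nqo1 gave 2.14 ± 0.51 (adjusted p = 0.0467), a call that was lost in 10 of the 12 fits that left out 1 array (adjusted p = 0.0591 to 0.121) and kept only without array 2 or 3 of WT 24 months. Txnrd1 (0.59 ± 0.16, adjusted p = 0.0824), Nfe2l2 (0.58 ± 0.19, adjusted p = 0.152) and Slc7a11 (0.42 ± 0.15, adjusted p = 0.179) did not pass, and Gclc, Gclm and Hmox1 had intervals that included 0. The contrast is the sum of 2 differences. Of the Srxn1 value, 2.29 was the excess of the arrays labelled WT 6 months over WT 24 months, and 0.27 that of the arrays labelled KO 24 months tumor over KO 6 months.

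The proteins that hold NRF2 back or pair with it were described by a list of 15 regulators and partners, all measured. In the arrays labelled WT 6 months, 2 were higher and 1 lower against WT 24 months (median log2 difference 0.32, against -0.01 over all genes). Against KO 6 months 4 were higher and 1 lower (median 0.03, against -0.05). Of all genes, 6.37% were called higher and 5.39% lower against WT 24 months, and 7.48% and 8.14% against KO 6 months. These shares apply to each list count that follows. A count of 1 or 2 in so short a list is not read as a result about the list. Nfe2, the p45 relative of NRF2 known from blood cells, measured 7.42, 7.62 and 7.73 in the WT 6 months arrays, by label, and 4.46 to 5.54 in the 9 others, and was 6.04-fold higher than in WT 24 months (2.60 ± 0.22, adjusted p = 2.56e-05) and 5.74-fold higher than in KO 6 months (2.52 ± 0.22, adjusted p = 2.65e-05). Bach2, a repressor that competes for the same elements, was lower by both comparisons (-1.55 ± 0.29, adjusted p = 0.00589, and -2.24 ± 0.29, adjusted p = 4.92e-04). Sqstm1, the p62 adaptor that takes KEAP1 into autophagy, was higher in both (0.66 ± 0.10 and 0.44 ± 0.10). Keap1 itself and Gsk3b, a kinase that marks NRF2 for destruction, were called higher against KO 6 months only (0.58 ± 0.13, adjusted p = 0.0119, and 0.59 ± 0.17, adjusted p = 0.0458), and whether this differs from the 0.43 and 0.41 against WT 24 months was not tested.

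Of the enzymes of glutathione synthesis and use beside Gclc and Gclm, 14 of 15 were measured. Against WT 24 months 3 were higher and 0 lower (median 0.03), where 6.37% and 5.39% of all genes were. Against KO 6 months 2 were higher and 1 lower (median 0.35), where 7.48% and 8.14% of all genes were. Gpx4, which reduces lipid hydroperoxides with glutathione, was higher in both (1.03 ± 0.10 and 0.80 ± 0.10), as was Ggct, an enzyme of glutathione breakdown (1.24 ± 0.18 and 1.26 ± 0.18). Gsr, glutathione reductase, was higher against WT 24 months (0.79 ± 0.15, adjusted p = 0.00607), and Glo1, a glyoxalase, was lower against KO 6 months (-0.78 ± 0.22, adjusted p = 0.0388).

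Of the thioredoxin system around Txnrd1 and Srxn1, 9 genes among 12 were measured. Against WT 24 months 3 were higher and 1 lower (median 0.20), where 6.37% and 5.39% of all genes were. Against KO 6 months 1 was higher and 1 lower (median 0.04), where 7.48% and 8.14% of all genes were. Txnip, which binds and inhibits thioredoxin, was 6.96-fold lower than in WT 24 months (-2.80 ± 0.30, adjusted p = 1.61e-04) and 6.46-fold lower than in KO 6 months (-2.69 ± 0.30, adjusted p = 1.83e-04). Prdx3, the mitochondrial peroxiredoxin, was higher in both (1.18 ± 0.13 and 1.13 ± 0.13). Txnrd2 (0.60 ± 0.14, adjusted p = 0.0198) and Txnrd3 (0.50 ± 0.14, adjusted p = 0.0483), the mitochondrial and testis-rich reductases, were higher against WT 24 months.

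Among the 4 genes of superoxide and peroxide removal, 0 were higher, where 6.37% of all genes were against WT 24 months and 7.48% against KO 6 months. Lower were 1 against WT 24 months and 2 against KO 6 months, where 5.39% and 8.14% of all genes were. These shares hold for all lists of this paragraph. Sod3, the extracellular superoxide dismutase, was lower against WT 24 months (-2.49 ± 0.29, adjusted p = 2.76e-04) and against KO 6 months (-2.28 ± 0.29, adjusted p = 4.48e-04), and Sod2, the mitochondrial enzyme, was lower against KO 6 months (-0.61 ± 0.13, adjusted p = 0.00929). The list's median was -0.34 and -0.44. Of 6 measured genes of 7 that supply NADPH, Pgd of the pentose phosphate pathway (1.14 ± 0.12 and 1.24 ± 0.12) and Tkt, its transketolase (0.60 ± 0.13 and 0.63 ± 0.13), were higher in both comparisons and the other 4 were not called (median 0.37 and 0.07). Of 7 measured heme and iron genes of 8, Blvrb, a biliverdin reductase, was higher (1.51 ± 0.26 and 2.05 ± 0.26). Slc40a1, the iron exporter ferroportin, was lower (-0.86 ± 0.13 and -0.49 ± 0.13). The other 5, Blvra among them, were not called, and the medians were -0.18 and 0.06.

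Detoxification genes that NRF2 is known to induce were the list with the most calls by limma. It was also the longest of the 7 lists, so the ranking by count depends in part on length. Of 20 measured genes of 22, 11 were higher and 0 lower against WT 24 months (median 0.83, against -0.01 over all genes), and 9 were higher and 0 lower against KO 6 months (median 0.54, against -0.05), where 6.37% and 7.48% of all genes were called higher. Against WT 24 months SAM called 2 of them, as many as in the thioredoxin list, and limma called 6 when only the 2 groups were fitted. Of the glutathione transferases among them, Gstm2 was higher by 2.77 ± 0.20 and 3.45 ± 0.20 and Gstm3 by 2.30 ± 0.16 and 2.25 ± 0.16, and Gstm4 by 2.10 ± 0.25 and 1.51 ± 0.25, with the reserve that near-identical Gstm transcripts can share probes. Abcc4, an efflux pump for organic anions, was higher by 3.68 ± 0.66 (adjusted p = 0.00463) and 5.49 ± 0.66 (adjusted p = 3.04e-04), with 9.76 in the second WT 24 months array against 6.21 and 7.88 in the other 2, the same array that was highest of its group in Nqo1. Aox1, an aldehyde oxidase, was higher by 1.33 ± 0.20 and 0.82 ± 0.20. No gene of the 7 lists was called by limma in either comparison of the arrays labelled KO 24 months tumor. Of all genes, 0.192% were called higher and 0.121% lower there against WT 24 months, and 0.022% and 0% against KO 6 months. With so few calls on the whole array, the count of 0 says little of the lists. The genes in these lists are partly zonal in liver, and the pericentral and periportal markers that moved in the same arrays (medians of 2.07 and -3.12 against WT 24 months, and 2.50 and -3.28 against KO 6 months) were not tested for their part in these counts.

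**Figure D4:**
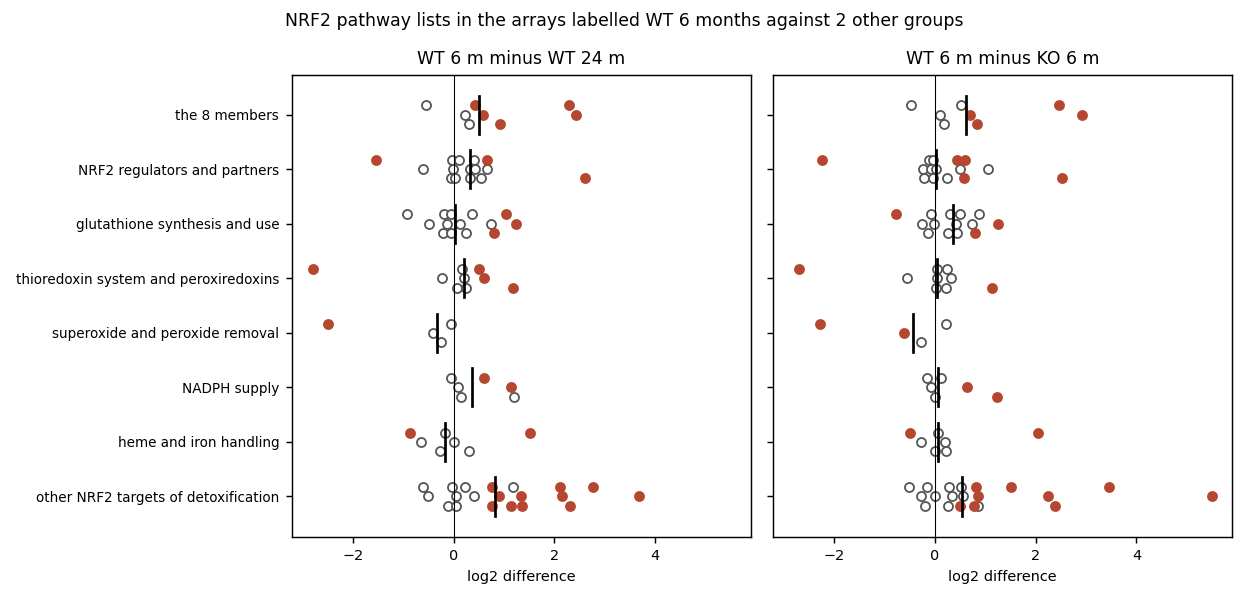
Log2 difference of every measured gene of the 8 followed here and of 7 lists of the NRF2 pathway, in the arrays labelled WT 6 months against WT 24 months (left) and against KO 6 months (right). Each point is a gene by its brightest probe set, filled red where the adjusted p was 0.05 or less, and the vertical bar is the median of the list. Called genes of the detoxification list lie to the right of 0 only, 11 in the left panel and 9 in the right. The thioredoxin list holds 3 called genes to the right of 0 and 1 to the left in the left panel. In the right panel it holds 1 on each side. Of all genes, 6.37% were called higher and 5.39% lower in the left comparison, and 7.48% and 8.14% in the right.

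For the 4 genes whose group means spanned at least 1 log2 unit, the most similar genes were found by the root mean square difference of log2 values over the 12 arrays, after each gene was centred on its own mean. The nearest to Nqo1 were Maoa (0.34), Gstm2 (0.45) and Nfe2 (0.45). The nearest to Srxn1 were Ccdc85b (0.18), Znrf3 (0.23) and Npdc1 (0.24), and the nearest to Nfe2l2 were Septin10, Nmi and Dbndd2 (0.16 each). Hmox1 had other neighbours, Amz1 (0.26), Syk (0.26) and AB124611 (0.27), which like it were highest on average in WT 24 months. Among the 8 genes themselves, Nfe2l2 lay nearest to Txnrd1 (0.27), and Nqo1 to Srxn1 (0.57). These distances describe the 12 arrays, which share 1 normalization, and were not tested.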

How the data were processed

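The deposited values are log2 intensities of 12 single-colour arrays, which the authors made with RMA in the R package simpleaffy (version not given in the sources used here). RMA equalizes the arrays, so a shift shared by all genes is removed from every difference. Control probe sets (64 of 45101) were left out. Probe sets were named from the platform annotation. Those naming several genes (932) or none listed (9160) entered the fit but not the gene counts. The number of arrays limits the precision.

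Groups came from the labels. The 4 group means were fitted with limma 3.58.1 in R 4.3.3, with p-values adjusted by Benjamini-Hochberg over all probe sets. Values after ± are SE. SAM, which the study's methods name, was computed from its definition as an alternative. The other alternatives were the 2 compared groups alone, the replicate number as a block, 2 centrings, other uses of a gene's probe sets, a filter on dim probe sets, another prior and each array left out. The fit was tested on simulated data.

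The 8 genes, the 7 pathway lists and the markers were chosen with earlier results of these data known. Named from each list were up to 4 called genes with the smallest adjusted p in a comparison, or all where 5 or fewer were called, and, for each of the 8 whose group means span 1 log2 unit, its 3 nearest genes.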

Additional observations from a re-analysis of the deposited data

Results flagged for a closer look

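The change from 6 to 24 months by label was not the same in KO and WT for 4 probe sets of 2 of the genes, by the interaction term of limma. Srxn1 gave 2.56 (log2, adjusted p = 5.50e-04) on its brightest probe set, 2.25 (adjusted p = 8.18e-04) on the second and 2.33 (adjusted p = 3.19e-04) on the third, and Nqo1 gave 2.14 (adjusted p = 0.0467). The 3 Srxn1 probe sets read the same gene and are not independent. Each value stays the same sum of group means if the WT 6 months label is exchanged with that of the KO 24 months tumor, and the cause was not tested.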

How the results depend on the processing

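The calls of Nqo1 and Srxn1 against KO 6 months and of Srxn1 against WT 24 months and in the interaction kept their direction and their side of the threshold under every alternative run. SAM and the fit of only 2 groups were not run for the interaction, which takes all 4 groups. Where a result changed, the cause was not tested. Outside the fits that left out 1 array, only the larger changes of a count are listed, and smaller ones are left out. Members called higher against WT 24 months were 3 with averaged probe sets (of all genes, 1272 of 18193) and 1 with SAM (of all probe sets, 474 of 45037), also 1 at a fold of 3. They were 2 at a fold of 3 with limma (2.35% of all genes in either direction). When every probe set was counted they were 8 of the 17, against 2234 of 45037. With 1 array left out they were 4 to 5. Against KO 6 months they were 2 with averaged probe sets (of all genes, 1307 of 18193) and 2 at a fold of 3 (2.59% of all genes in either direction). SAM kept the calls of the main fit there and added Hmox1 (false discovery rate of 0.0272), and called 4483 of 45037 probe sets higher. With any array left out the members called higher were 4. In the interaction they were 1 with the replicate block (Nqo1 lost, adjusted p = 0.0888) and 1 with a trended and robust prior (Nqo1, adjusted p = 0.0545). These fits called 680 and 746 of 45037 probe sets in that direction. By every probe set the members were 4 of 17, against 780 of 45037. With 1 array left out they were 1 to 3, Nfe2l2 (adjusted p = 0.0497) or Txnrd1 (adjusted p = 0.0495) being gained. Those fits called 479 to 954 of 45037 probe sets in that direction. For the arrays labelled KO 24 months tumor against WT 24 months the members called higher were 0 to 1. The whole-array counts of the pairwise fits that left out 1 array stand with the list counts below.

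The replicate numbers do not pair the samples: the correlations of same-numbered arrays' deviations from their group means ran from -0.236 to 0.188. Of the larger changes of a count, the block made 1 beside Nqo1, in heme and iron genes against KO 6 months, from 2 to 1. The list counts that follow are of genes called in either direction. With only the 2 groups fitted, against WT 24 months the thioredoxin list had 2, NADPH 1, heme and iron 1 and detoxification 6 calls. Of all 45037 probe sets, 864 were higher and 633 lower there. Heme and iron had 1 against KO 6 months, where 2793 and 2870 probe sets were called. Glutathione had 1 for KO 24 months tumor against KO 6 months, where 57 and 67 were. Centring on 3 housekeeping genes shifted the median of all differences to 0.118 against WT 24 months and 0.145 in the interaction, and turned 2234 higher and 1710 lower probe sets against WT 24 months into 2044 and 1018, and 2715 and 2738 against KO 6 months into 2305 and 1081. It gave thioredoxin 2, NADPH 1 and heme and iron 1 against WT 24 months, regulators 3, superoxide 1, NADPH 1 and heme and iron 1 against KO 6 months, and, for KO 24 months tumor, detoxification 1 against WT 24 months and glutathione 1 against KO 6 months. SAM gave regulators 1, thioredoxin 2, NADPH 1, heme and iron 0 and detoxification 2 against WT 24 months. Of all 45037 probe sets it called 474 higher and 347 lower there. Against KO 6 months it gave glutathione 5 and thioredoxin 4, where it called 4483 probe sets higher and 5305 lower. For KO 24 months tumor against KO 6 months it gave glutathione 1, where it called 61 and 64. Averaged probe sets gave heme and iron 4 against WT 24 months, where 1272 of 18193 genes were higher and 1078 lower. They gave regulators 3 against KO 6 months, where 1307 and 1595 genes were called. Adjustment over 1 probe set per gene gave superoxide 2 against WT 24 months, where 1286 and 1131 genes were called.

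With 1 array left out, calls against WT 24 months were 3 to 5 regulators, 3 to 4 glutathione, 2 to 4 thioredoxin, 1 to 2 superoxide, 2 to 3 NADPH, 2 to 3 heme and iron and 10 to 11 detoxification genes. Of all 45037 probe sets, 1804 to 2227 were higher and 1225 to 1768 lower there. Against KO 6 months the list calls were 2 to 5, 2 to 4, 2 to 3, 2 to 3, 2 to 2, 1 to 3 and 6 to 10. Of all probe sets, 1666 to 3186 were higher and 1668 to 3249 lower. For KO 24 months tumor the list calls were 0 to 1 glutathione, 0 to 1 NADPH and 0 to 2 detoxification genes against WT 24 months and 0 to 1 glutathione genes against KO 6 months. Of all probe sets, 2 to 599 were higher and 7 to 578 lower against WT 24 months, and 3 to 16 and 0 to 3 against KO 6 months. The sign turned for Gclm against KO 6 months with averaged probe sets (-0.09), and for KO 24 months tumor against KO 6 months in Txnrd1 (-0.01 with median centring, -0.13 averaged) and Slc7a11 (0.01 with housekeeping centring). Leaving out 1 array turned the sign of uncalled differences in the ranges -1.14 to 0.18 (Hmox1 against WT 24 months), -1.26 to 0.06 (Hmox1, KO 24 months tumor against WT 24 months), -0.09 to 0.03 (Gclm), -0.07 to 0.09 (Txnrd1) and -0.03 to 0.03 (Slc7a11) for KO 24 months tumor against KO 6 months, and -0.11 to 0.34 (Gclc) and -0.74 to 0.58 (Hmox1) in the interaction. Slc7a11 lies below the median probe set, and a filter on dim probe sets removes it.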
